A study of Rattus norvegicus with 38 samples.

Results

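The DMRs described here were single CpGs that were already heavily methylated in the cheek of newborn rats. Of the 3417 differentially methylated regions (DMRs) of the study, 2510 spanned 1 CpG, and 328 of these had a mean methylation level of at least 75% over the P2 samples of all 19 pups. They are called high-P2 DMRs, and they made up 9.599% of all DMRs and 13.068% of the single-CpG DMRs. The members were chosen from the measured P2 levels, and every DMR of the study had been called by its authors because it differed between P2 and P10 in individual pups. Therefore the P2 level and P2 spread of the high-P2 DMRs, and their change from P2 to P10, are given as a description and support nothing.

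The animals were Sprague Dawley rats whose cheeks were swabbed on P2 (postnatal day 2) and again on P10. After the first swab litters were mixed and a random foster mother was drawn for each pup. From P2 to P9 the LBN pups and their dam had limited bedding and nesting material, a model of early-life adversity, and the control pups had the usual amount of bedding. There were 11 pups in cohort 1 (6 control, 5 LBN) and 8 in cohort 2 (4 control, 4 LBN), and the cohorts were run on different dates, so that cohort and date cannot be told apart. A buccal swab holds a mix of epithelial cells and white blood cells, neither sex nor foster dam is labelled for any pup, and pups of a group may share a dam. In such bulk DNA, a change in the mix of cells and a change within 1 kind of cell cannot be told apart.

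DNA methylation in mammals is found mostly on cytosines followed by guanine, the CpG sites. Most CpGs outside of CpG islands carry the mark on nearly all DNA copies, so that a high level at a single CpG is the common state of the genome, and a loss in a mixed sample appears as an intermediate percentage. Reduced representation bisulfite sequencing (RRBS) reads CpGs in fragments cut at MspI sites, and the methylation level is the percentage of reads that kept their cytosine.

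The high-P2 DMRs lay on 21 chromosomes and 2 of them were on chromosome X. Chromosome 10 held the largest number, 36 of its 209 single-CpG DMRs (17.2%), and chromosome 19 held 19 of 95, whereas chromosome 11 held 4 of 62. They were scattered, since the closest pair lay 6012 base pairs apart and 24 had any other DMR of the study within 10000 base pairs. Coordinates are printed as deposited, on the rn6 build. DNA sequences and the gene context of most of these CpGs were not analysed here, because no rn6 genome was used.

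At P2 the means of the high-P2 DMRs ranged from 75.0243% to 95.0% with a median of 81.6%. Individual pups departed from these means by an SD of 2.00 to 16.7 percentage points (median 7.19, n = 19), and the lowest value of any pup at P2 was 35.7%. The DMR just inside the threshold, chr4:85560574-85560575, had a P2 mean of 75.0243% and a P10 mean of 74.4%. Just outside it, chr18:63045877-63045878 had a P2 mean of 74.986% and a P10 mean of 67.9%. The threshold thus cut through a continuous range of levels, and the next class, with P2 means of 60% to 75%, held 589 single-CpG DMRs.

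By P10 most, but not all, high-P2 DMRs had a lower mean. The mean fell at 217 and was higher at 111, with a median change of -2.93 percentage points, a middle range of -10.2 to 1.44, and extremes of -37.1 and 14.7. There were 84 DMRs lower by 10 points or more and 12 lower by 20 or more, against 27 higher by 5 or more and 2 higher by 10 or more. The lower means made up 66.2%, the falls of 10 or more 25.6% and those of 20 or more 3.66%. Among all 3417 DMRs these shares were 57.0%, 26.0% and 3.86%, and 739 were higher by 5 or more and 295 by 10 or more. Among the single-CpG DMRs of 60% to 75% the 3 shares were 63.3%, 34.0% and 6.96%. The P10 mean stayed at 75% or above at 207 of the 328. Of the 30 with a P2 mean of 90% or more, 26 had a lower P10 mean (median change -6.36), and of the 126 between 75% and 80%, 80 had one (median change -2.75). Between them, 63 of the 105 from 80% to 85% had one (median change -1.35) and 48 of the 67 from 85% to 90% (median change -3.50). These bins were cut on the P2 level from which the change is counted, and are a description. None was lower in all 19 pups, 10 were lower in 18, and 84 in 15 or more, whereas 15 were higher in 15 or more pups.

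Tested across all DMRs with the pup as a block in limma, 105 high-P2 DMRs passed the adjusted p of 0.05 with a lower level at P10 (32.0%), where 30.0% of all DMRs did. In the other direction 22 passed (6.71%), where 13.7% of all DMRs did. This contrast took part in the choice of the DMRs, and the counts are printed for description. The levels called lower fell by 37.1 to 5.32 percentage points (median -13.7), and those called higher differed by 4.36 to 14.7 (median 6.95). With cohort 1 alone 52 were called lower and 15 higher (15.9% and 4.57%, against 15.5% and 10.3% of all DMRs). With cohort 2 alone 99 were called lower and 8 higher (30.2% and 2.44%, against 22.9% and 4.74%).

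**Figure D1:**
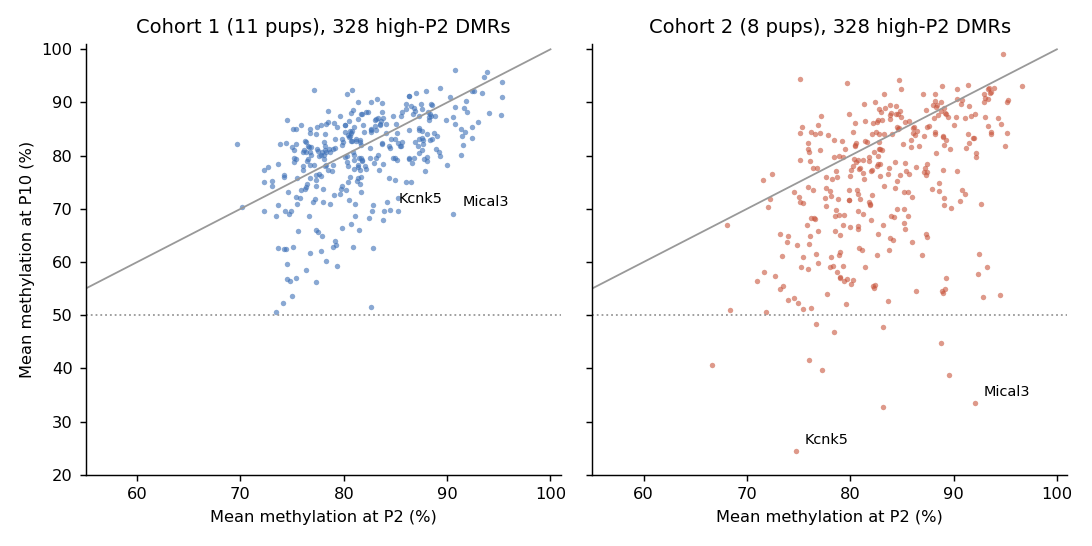
Mean methylation level (%) of each of the 328 high-P2 DMRs at P2 (horizontal axis) and at P10 (vertical axis), in cohort 1 (11 pups, left) and cohort 2 (8 pups, right). Each point is 1 DMR, the diagonal marks equal levels and the dotted line marks 50%. No DMR of cohort 1 and 11 DMRs of cohort 2 lie under the dotted line, with Kcnk5 and Mical3 among the 11.

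The spread between pups at P2 and P10 is also given as a description. The rule chose these DMRs by a P2 mean near the upper limit of 100%, which leaves little room for spread at P2. The SD over the 19 pups had a median of 7.19 percentage points at P2 and 9.56 at P10, and it was larger at P10 at 247 of the 328 (75.3%). Among all DMRs this share was 64.6%, and among the single-CpG DMRs of 60% to 75% it was 65.9%. Within cohort 1 the median SD was 6.88 at P2 and 7.42 at P10, and within cohort 2 it was 6.38 and 9.58. Values of exactly 100% occurred 79 times in 50 DMRs, 24 times at P2 and 55 times at P10, and no value was 0. C5 of cohort 2 held 18 of the 55 values of 100% at P10.

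Because the mean hides pups that moved in opposite directions, each pup was described by its mean over the 328 DMRs. This mean went from 82.4% ± 2.25 (SD, n = 19) at P2 to 77.6% ± 3.92 at P10, from 78.4% to 86.0% at P2 and from 68.7% to 83.5% at P10. In cohort 1 it went from 81.7% ± 2.38 to 79.7% ± 1.82 (SD, n = 11), and in cohort 2 from 83.2% ± 1.85 to 74.8% ± 4.38 (SD, n = 8). The ranges of the cohorts overlapped at both ages, but the 5 lowest means at P10 all belonged to cohort 2.

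The largest falls were those of C11 (-17.3 percentage points) and LBN11 (-15.5) of cohort 2, which had the 2 highest means of all pups at P2. In contrast, C6 of cohort 1 started lowest, at 78.4%, and was higher by 5.05 at P10, and LBN4 of cohort 1 was higher by 1.41. The change of a pup is counted from its own P2 mean, so starts and falls are not independent and are set side by side only as a description. Across the 19 pups the correlation of P2 with P10 was negative at 219 of the 328 DMRs, with a median Pearson r of -0.127, against 0.036 over all DMRs. Within cohort 1 the median r was -0.220 (n = 11), against -0.119 over all DMRs, and within cohort 2 it was -0.231 (n = 8), against -0.192, so that within a cohort the median r was negative for all DMRs as well. These coefficients share the same pups and libraries at every DMR and are given as a description.

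**Figure D2:**
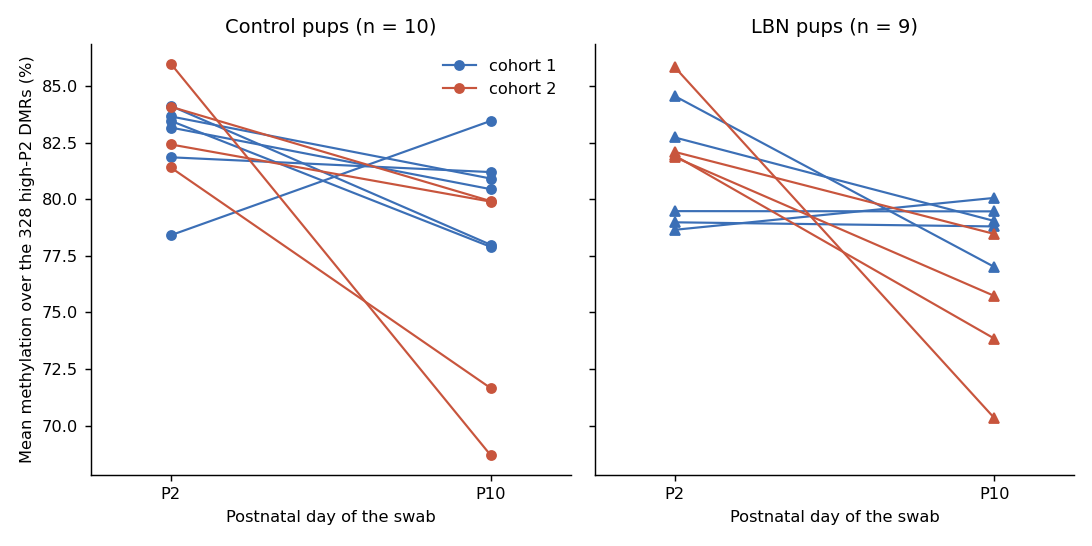
Mean methylation level (%) over the 328 high-P2 DMRs in each pup at P2 and at P10, for the 10 control pups (left) and the 9 LBN pups (right), with 1 line per pup, in blue for cohort 1 and in red for cohort 2. The vertical axis does not start at 0; C6 of cohort 1 is the line that rises to 83.5%, and C11 of cohort 2 the line that falls to 68.7%.

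Some high-P2 DMRs were under 50% at P10 in single pups. Levels under 50% made up 8 of 6232 values at P2 and 285 of 6232 at P10. The rule, a P2 mean of at least 75%, itself kept such values rare at P2, so the contrast of ages is only a description. Matching counts over all DMRs are not given here, so the counts below are not read as particular to these DMRs. At P10 a cohort 1 pup had 2 to 13 DMRs under 50% and a cohort 2 pup had 11 to 37. The highest counts were those of C8 with 37, LBN11 with 34 and C11 with 31, all of cohort 2. In cohort 2, 94 DMRs were under 50% in at least 1 pup, but 41 of these were so in 1 pup only, 9 in 5 or more pups, and 3 in all 8 pups. In cohort 1, 36 were under 50% in at least 1 pup, and 25 DMRs, of the 36 and of the 94, were so in both cohorts. The sites that C8 and LBN11 had under 50% overlapped at 20, of 37 and 34, and those of C5 and LBN4 at 18, of 28 and 29. The other 26 pairs of cohort 2 pups shared 5 to 15 such sites, but some overlapped more as a share of the smaller set. For example, C1 and LBN9 shared 12 of the 16 of C1 (75%), whereas the 20 of C8 and LBN11 were 58.8% of those of LBN11.

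**Figure D3:**
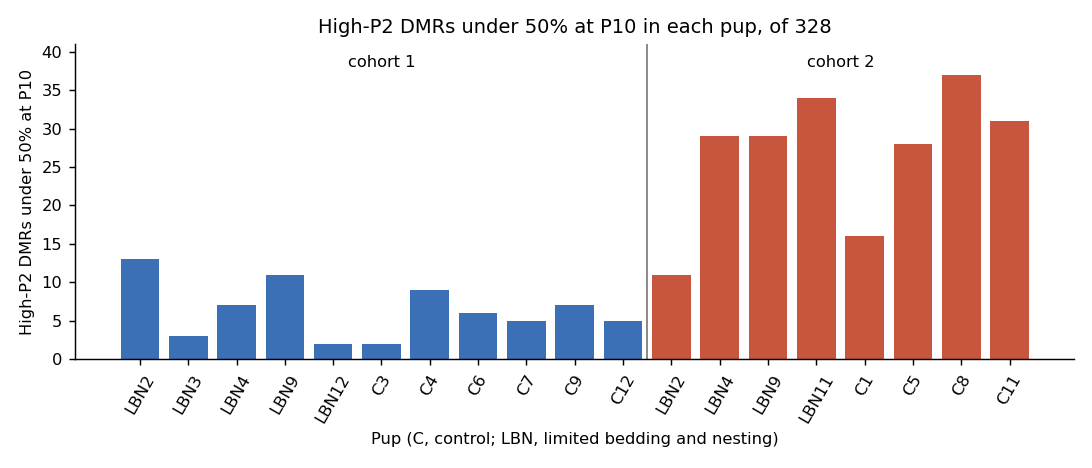
Number of the 328 high-P2 DMRs with a methylation level under 50% at P10 in each of the 19 pups, in blue for cohort 1 and in red for cohort 2. Bars of cohort 1 reach from 2 to 13 and bars of cohort 2 from 11 to 37.

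Among the 328, 6 could be paired with a gene symbol, through the DMR lists of the study's supplementary tables, which had been drawn up on these same samples. They are a potassium channel pair (Kcnk5 and Kcnk10), Mical3, Tbxas1, Zfp831 and AC096072.1. For comparisons other than age, limma tests across all DMRs are given with Benjamini-Hochberg adjusted p-values.

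Kcnk5 encodes a background potassium channel of the K2P family, and its DMR lay in an exon at chr15:4595203-4595204. The P2 levels ran from 59.5% to 95.8% with a median of 82.3%. At P10 cohort 1 ran from 37.3% to 87.7% with a median of 74.5%, and the 8 cohort 2 pups had 33.3%, 17.3%, 28.6%, 21.2%, 46.0%, 11.8%, 18.2% and 18.9%. All 8 cohort 2 pups were thus under 50% and lower than at P2, and 9 of the 11 cohort 1 pups were lower than at P2. C9 of cohort 1, at 37.3%, was the 1 cohort 1 pup within the range of cohort 2. The P10 mean was 69.7% ± 15.1 in cohort 1 and 24.4% ± 11.05 in cohort 2, the largest cohort difference of all 328 in percentage points (-45.3), and it passed the test (-3.01 ± 0.395 SE on the log2 odds scale, adjusted p = 1.95e-06).

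The DMR assigned to Mical3, a monooxygenase that acts on actin, lay in an intergenic position at chr4:153611188-153611189, and it had the largest decrease of all, from 91.2% ± 4.18 to 54.1% ± 23.3 (SD, n = 19). At P2 it ran from 82.4% to 98.8%. At P10 cohort 1 ran from 40.5% to 88.2% with a median of 71.8%, and cohort 2 from 21.2% to 48.5% with a median of 32.5%. Every cohort 2 pup was under the lowest P2 value of any pup, and in cohort 1, C9 was lowest (40.5%), as it was at Kcnk5. The cohorts overlapped through C9, and their difference at P10 passed the test (-2.37 ± 0.423 SE on the log2 odds scale, adjusted p = 7.2e-05).

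Tbxas1 encodes thromboxane A synthase, which makes the platelet aggregant thromboxane A2. Its intronic DMR at chr4:66697238-66697239 went from 76.7% ± 10.9 at P2 to 56.9% ± 14.3 at P10 (SD, n = 19). It was lower in 17 of 19 pups, and the cohorts ended alike, at 56.9% ± 14.9 (n = 11) and 56.8% ± 14.5 (n = 8), with an adjusted p of 0.994 for the cohort difference at P10. Its mean change was -17.6 points in cohort 1 and -22.9 in cohort 2.

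The remaining gene-paired DMRs moved less. The intronic site of Zfp831, which encodes a zinc finger protein, went from 75.7% ± 9.05 to 65.7% ± 11.8 at chr3:172774807-172774808, and was lower in 13 of 19 pups. Kcnk10, another K2P channel, had an intronic site at chr6:122515010-122515011 that went from 77.4% ± 11.9 to 74.7% ± 16.6, lower in 9 pups and higher in 10, with P10 values from 26.3% to 100%. AC096072.1, with an intergenic site at chr4:81777954-81777955, went from 77.4% ± 14.4 to 85.4% ± 15.7, higher in 13 of 19 pups. In cohort 1 its mean was 15.1 points higher at P10 than at P2 and in cohort 2 the mean change was -1.68, and the test of that difference did not pass (adjusted p = 0.213).

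**Figure D4:**
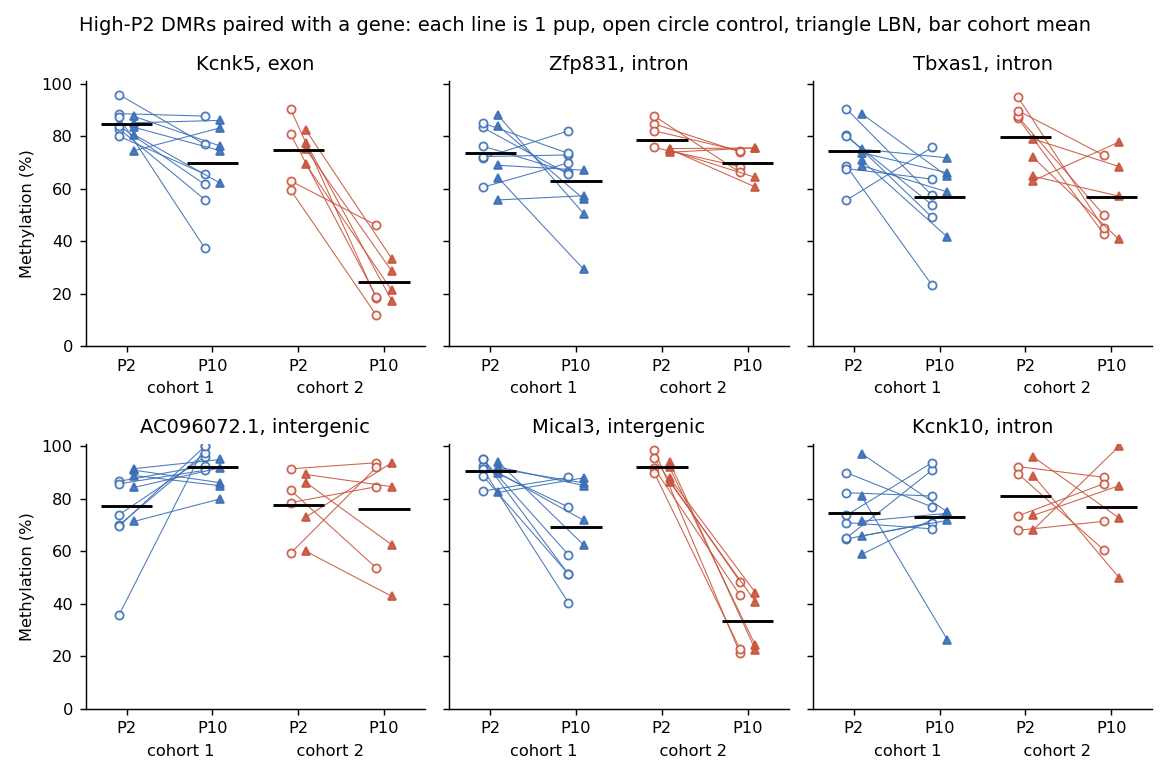
Methylation level (%) of the 6 high-P2 DMRs paired with a gene symbol, at P2 and P10 in cohort 1 (blue, 11 pups) and cohort 2 (red, 8 pups). Each thin line is 1 pup, open circles are control pups, triangles are LBN pups and black bars are cohort means. The cohort 2 pups of Kcnk5 and Mical3 all end under 50% at P10, the Tbxas1 cohort means end at about the same level, and Kcnk10 has lines in both directions.

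Of the other DMRs with large decreases, chr6:126343471-126343472 was lower at P10 in 18 of 19 pups. It went from 82.1% ± 8.95 (63.6% to 96.2%) to 54.8% ± 13.9 (26.7% to 80%), and here cohort 1 had the larger mean change, -31.0 points against -22.3. By contrast, chr2:20090777-20090778 went from 88.7% to 62.1%, with -9.09 points in cohort 1 and -50.8 in cohort 2. Its P10 values were 60.3% to 89.7% in cohort 1 and 26.6% to 57.1% in cohort 2, which did not overlap. Likewise chr1:267459827-267459828 had P10 means of 76.0% ± 14.1 (n = 11) and 32.7% ± 9.99 (n = 8), from 52.8% to 95.0% and from 16.7% to 48.0%, again without overlap. It was under 50% in all 8 cohort 2 pups, as were Kcnk5 and Mical3.

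The 5 DMRs with the largest increases each had a smaller SD at P10 than at P2, whereas over all 111 with a higher mean 56 did. The largest increase was at chr17:9661618-9661619, from 78.1% ± 8.80 (58.2% to 95.0%) to 92.8% ± 5.48 (78.3% to 100%), higher in 17 of 19 pups. At chr13:111043000-111043001 the level went from 80.3% ± 6.57 to 92.9% ± 3.65 and was higher in 18 of 19 pups, the largest number of any of the 328. At chr2:140974539-140974540 it went from 79.6% ± 6.45 to 89.4% ± 5.88, at chr10:108148934-108148935 from 75.8% ± 4.95 to 85.4% ± 4.27, and at chr4:118586377-118586378 from 80.1% ± 6.53 to 89.1% ± 4.87. Each of these 5 was higher at P10 in each cohort, by 7.66 to 19.2 points on average.

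Whether the high-P2 DMRs moved alike in both cohorts was described by the interaction of age and cohort on the log2 odds scale. The P2 levels of the rule and the change by which the DMRs were chosen both enter this test. Its counts are therefore a description and support nothing. The interaction passed at 15 of the 328 (4.57%), where 2.40% of all DMRs passed, and at all 15 the change was lower in cohort 2. In cohort 2 their mean changes ran from -58.6 (Mical3) to -9.76 points, and in cohort 1 from -21.5 (Mical3) to 5.39. Besides Mical3 and Kcnk5, the 15 included chr4:117115130-117115131, which had the smallest p. It went from 86.7% ± 5.97 to 79.6% ± 7.97 in cohort 1 and from 92.8% ± 4.09 to 53.4% ± 9.41 in cohort 2. Its P10 values ran from 64.6% to 91.5% in cohort 1 and from 40.2% to 65.5% in cohort 2, overlapping by less than 1 point. At chr1:221627200-221627201 the P10 mean was 79.8% ± 9.72 in cohort 1 and 44.8% ± 12.5 in cohort 2, from P2 means of 88.1% and 88.8%. At chr13:50097945-50097946 the cohorts went opposite ways, from 90.8% to 96.1% in cohort 1 and from 91.2% to 81.5% in cohort 2, and no P10 value of cohort 2 (highest 87.6%) reached the lowest of cohort 1 (92.0%).

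At P10 itself, cohort 2 was lower than cohort 1 at 81 high-P2 DMRs (24.7%, against 42.1% of all DMRs) and higher at 21 (6.40%, against 7.11%), in limma with experience in the model. The share of lower calls among the high-P2 DMRs was under that of all DMRs. The lower calls differed by -45.3 to -7.43 points (median -18.1) and the higher calls by 3.89 to 17.97 (median 9.89). The pups of cohort 2 all lay under those of cohort 1 at 10 high-P2 DMRs (3.05%, against 5.68% of all DMRs), and all above at 0 (0.146% of all DMRs). Among those higher in cohort 2, chr9:68671818-68671819 had 50.6% ± 13.5 in cohort 1 and 68.6% ± 16.4 in cohort 2 (adjusted p = 0.0177), with ranges of 25% to 69.4% and 37.5% to 85.7% that overlapped widely.

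The mean change of cohort 2 was also lower outside the high-P2 DMRs. The median change was -1.45 points in cohort 1 and -5.74 in cohort 2 for the high-P2 DMRs, 1.34 and -5.98 for all DMRs, and -0.0568 and -9.15 for the single-CpG DMRs of 60% to 75%. Across the high-P2 DMRs, 170 had a lower mean in both cohorts (51.8%), 80 in cohort 2 alone, 13 in cohort 1 alone, and 65 had a higher mean in both. Among all 3417 DMRs, 1448 had a lower mean in both cohorts (42.4%), 981 in cohort 2 alone, 127 in cohort 1 alone, and 861 had a higher mean in both.

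The comparison of LBN with control pups at P10 addresses whether a week of adversity left a mark on these sites. With cohort in the model, 0 of 328 high-P2 DMRs passed the adjusted p of 0.05 in limma, where 0% of all 3417 DMRs passed. An unadjusted p under 0.05 was found at 39 of the 328 (11.9%) and at 337 of all (9.86%), but in percentage points at 26 (7.93%) and at 377 of all (11.03%). Without C11 of cohort 2 it was found at 70 of the 328 (617 of all), and without LBN4 of cohort 2 at 64 (681 of all). The LBN mean was lower at 214 and higher at 114, and both cohorts had a lower LBN mean at 118, both a higher one at 61, and opposite directions at 149. Differences ran from -13.1 to 17.5 points with a median of -1.48. At P2, before assignment, the mean of the later LBN pups was already lower at 206 of the 328, with a median difference of -1.27 points. With cohort in the model, the median LBN effect at P10 on the log2 odds scale was -0.220 for the 328 and 0.0685 for all DMRs.

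The smallest p at P10 was that of chr1:99729971-99729972. LBN pups ran from 49.1% to 91.5% with a median of 75.8%, and control pups from 21.1% to 78.0% with a median of 54.9%. The groups overlapped over most of the control range, and the difference was 1.32 ± 0.373 SE on the log2 odds scale with an adjusted p of 0.482. In cohort 1 the LBN pups had 79.2%, 75.8%, 91.5%, 87.3% and 87.3%, and the 6 control pups ran from 38.7% to 78.0%. In cohort 2 the LBN pups had 66.7%, 49.1%, 63.2% and 51.2% and the control pups 57.9%, 21.1%, 48.1% and 61.4%. At this site LBN was higher by 24.3 points in cohort 1 and by 10.4 in cohort 2, but also by 4.30 and 10.8 at P2, before the pups were assigned.

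Of the next 4 by p, 3 had lower LBN means. At chr15:95473657-95473658 LBN pups ran from 54.5% to 89.3% (median 82.0%) and control pups from 58.3% to 97.1% (median 91.4%), with -9.88 points in cohort 1 and -14.2 in cohort 2. At chr6:132341973-132341974 LBN pups ran from 69.6% to 87.2% (median 79.1%) and control pups from 71.9% to 96.7% (median 89.6%), with -10.9 points in cohort 1 and -7.18 in cohort 2. The site chr10:101563903-101563904 had LBN levels of 76.8%, 59.5%, 57.7%, 74.4% and 48.3% in cohort 1, all under the control range of 82.9% to 92.5%. In cohort 2 the same site had LBN levels of 89.2%, 89.8%, 92.2% and 89.5% and control levels of 87.1%, 95.7%, 89.7% and 87.0%, which overlapped. The interaction of experience with cohort did not pass there (adjusted p = 0.154). The remaining one, chr5:61003964-61003965, had higher LBN means in each cohort, by 17.8 and 7.90 points, while its P10 level was 80.8% in cohort 1 and 41.5% in cohort 2. Each of these 5 had an adjusted p of 0.482 in the pooled test.

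With cohort 1 alone, 23 high-P2 DMRs passed between LBN and control at P10, 10 higher and 13 lower in LBN (7.01%, where 12.0% of all DMRs passed), with differences of -24.1 to 24.3 points. Cohort 2 alone gave 0, with 5 of the 328 (1.52%) and 45 of all DMRs (1.32%) at an unadjusted p under 0.05, and 16 of the 23 had the same sign there. The interaction of experience and cohort at P10 passed at 0 of the 328, where 0% of all DMRs passed, so a difference between the cohorts was not shown. Its unadjusted p was under 0.05 at 26 of the 328 (7.93%) and at 808 of all DMRs (23.6%). LBN and control pups of cohort 1 did not overlap at 12 high-P2 DMRs (3.66%, against 4.80% of all DMRs). One of them was chr5:73198551-73198552, where the LBN pups had 75%, 70.1%, 78.5%, 77.8% and 73.2% and the control pups 82.2% to 94.4%. In cohort 2 its LBN pups had 76.9%, 92.1%, 73.0% and 71.0% and its control pups 93.9%, 89.5%, 64.3% and 62.9%, with nearly equal means. Zfp831 was among the 23, with 52.0% ± 14.1 in LBN (n = 5) and 71.7% ± 6.01 in control pups (n = 6) of cohort 1 (adjusted p = 0.0453), and 69.0% and 70.7% in cohort 2. AC096072.1 was as well, with 87.6% ± 5.90 and 96.2% ± 3.78 (adjusted p = 0.0382).

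At P2 no pup had yet been assigned, and the later LBN pups were compared with the later control pups in the same way. With cohort in the model 0 of the 328 passed in limma, where 0% of all DMRs passed, and 23 of the 328 (7.01%) had an unadjusted p under 0.05, against 457 of all DMRs (13.4%). Leaving out LBN2, LBN3 or C6 of cohort 1 raised the 23 to 39, 38 or 37 (11.9%, 11.6% or 11.3%). Over all DMRs it raised the 457 to 942, 1002 or 728 (27.6%, 29.3% or 21.3%). With cohort 2 alone 22 passed (6.71%, where 14.0% of all DMRs passed), 3 higher and 19 lower in the later LBN pups, with differences of -20.2 to 16.8 points. Cohort 1 alone gave 0, with 11 of the 328 (3.35%) and 59 of all DMRs (1.73%) at an unadjusted p under 0.05. The 22 calls before assignment in cohort 2 and the 23 after it in cohort 1 were of different pups and ages. In cohort 2 alone 0 passed at P10. The DMR chr15:49305579-49305580 was the 1 DMR in both lists.

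Tbxas1 had the largest of these P2 differences. In cohort 2 the later LBN pups had 78.9%, 63.0%, 71.9% and 64.7% at P2 and the later control pups 87.0%, 87.5%, 89.7% and 95.0% (adjusted p = 0.0229). In cohort 1 the P2 means were 75.4% and 73.8%. At chr1:21923372-21923373 the cohort 2 pups later given LBN had 76.8%, 65.2%, 78.6% and 66.2%, all under the 92.1%, 89.2%, 90.4% and 88.2% of the later control pups. The site with the largest increase by age, chr17:9661618-9661619, differed the other way, with 82.7%, 87.5%, 80.5% and 83.5% in later LBN pups of cohort 2 and 58.2%, 76.1%, 65.9% and 66.7% in later control pups. Over both cohorts the smallest p at P2 were those of chr10:87190090-87190091 and chr5:155048150-155048151. The latter had a P2 mean of 76.1% ± 8.55 in later LBN (n = 9) and 87.3% ± 4.41 in later control pups (n = 10), and an adjusted p of 0.354.

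The change of each pup was finally compared between experiences as δ methylation, the log2 ratio of the P10 to the P2 level. No high-P2 DMR passed in limma (0 of 328, where 0% of the 3354 DMRs without a level of 0 passed), and 3 (0.915%) had an unadjusted p under 0.05, against 109 of the 3354 (3.25%). On the log2 odds scale the change also passed at 0, but 22 of the 328 (6.71%) had an unadjusted p under 0.05, against 117 of all 3417 DMRs (3.42%). In percentage points 12 of the 328 did (3.66%), against 117 of all 3417 (3.42%). The 3 found by δ methylation had small changes. At chr4:80443615-80443616 δ ran from -0.58 to 0.08 in LBN (median -0.14) and from -0.25 to 0.27 in control pups (median 0.07). At chr8:132244726-132244727 it ran from -0.18 to 0.32 in LBN (median 0.03) and from -0.55 to 0.09 in control pups (median -0.24). The site chr1:255668884-255668885 had a mean δ of -0.18 ± 0.21 in LBN (SD, n = 9) and 0.05 ± 0.12 in control pups (SD, n = 10). At all 3 the groups overlapped, each adjusted p was 0.999913, and the P2 means had differed in the opposite direction, for example 90.9% in later LBN and 84.3% in later control pups at chr4:80443615-80443616.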

How the data were processed

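RRBS was made from buccal swab DNA of 19 Sprague Dawley pups at P2 and P10 (38 samples). The deposited values are percentages: the authors divided methylated reads by all reads of a CpG or region. Reads had been trimmed with Trim Galore 0.4.3 and aligned to rn6 with Bismark 0.16.3. CpGs over 10 reads were kept, and CpGs differing between P2 and P10 of a pup were called. Those shared by more than 1 pup of the control or of the LBN group were joined into 1 DMR where they lay within 100 base pairs. The experience groups and the P10 levels thus took part in the choice of the DMRs. The values were not corrected for cohort. Read numbers are not given with the percentages, so the depth behind each value is unknown and no counting interval was computed. Whether coordinates count from 0 or 1 is not given in the sources used here.

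Single-CpG DMRs (end minus start of 1) with a mean of at least 75 over the 19 P2 columns were kept. The members, lists and tests were chosen with earlier results of these data known. All 3417 DMRs were tested in limma 3.58.1 (R 4.3.3) on log2((percent + 1)/(100 - percent + 1)), a log2 odds scale, with Benjamini-Hochberg adjustment over all DMRs at 0.05. P10 was compared with P2 with pup as a block, since P2 and P10 swabs of a pup carry the same pup name, LBN with control with cohort as a covariate and within each cohort, cohort 2 with cohort 1 with experience as a covariate, and δ methylation on log2(P10/P2) of 3354 DMRs. The limma steps were tested on simulated data. Tests treat pups as independent, and pups sharing a dam would make p-values too small.

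DMRs to name were those with a gene in the supplementary tables, the 5 largest decreases and 5 largest increases, the smallest p for LBN (5 at P10, 3 in change, 3 at P2), the 3 largest cohort differences and those next to the threshold; DMRs named from the calls within a cohort and from the age by cohort test were chosen after their values were seen. Of the 6 gene symbols, 5 were in the RefSeq table. Lists of epithelial and leukocyte genes were not used here, since the members are not annotated to genes. Alternatives were another offset, percentage points, robust and trended variance, DMRs with a 0 or 100 left out, a threshold of 80, each cohort and each experience alone, the replicate block and leaving out each pup. Python 3.11.15, numpy 2.4.6, pandas 2.3.3 and matplotlib 3.10.9 were used.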

Additional observations from a re-analysis of the deposited data

Results flagged for a closer look

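Among 66 groups of 4 to 10 values of the pup means and the named DMRs, 4 held a value whose gap to its neighbour passed the 95% limit of Dixon's test. At that limit chance alone flags a few of 66 such groups, so the 4 are listed only as a description. LBN11 of cohort 2 had a P2 mean over the 328 DMRs of 85.8%, apart from the other LBN pups of its cohort, whose nearest was 82.1%. C11 of cohort 2 had 82.6% at chr17:9661618-9661619 at P10, and the nearest of the other 7 cohort 2 pups had 93.6%. C8 of cohort 2 had 58.3% at chr15:95473657-95473658 at P10, where the nearest other control pup had 90%. C6 of cohort 1 had a δ methylation of 0.33 at chr1:255668884-255668885, and the nearest of the other control pups had 0.12.

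The change from P2 to P10 differed between the cohorts at 15 of the 328 DMRs (4.57%, against 2.40% of all DMRs) in the interaction of age and cohort. All 15 had a lower change in cohort 2. The P2 levels and the change took part in the choice of these DMRs, so this count is a description.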

How the results depend on the processing

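Counts of called DMRs kept within 1.5 times of the values above and their direction in 179 comparisons of a count with an alternative, and not in 9. The 179 include counts of 0 for LBN at P10, at P2 and in change that stayed at 0, where no factor or direction applies. Of the 127 DMRs called by age (1493 of all 3417), a P2 threshold of 80 left 80 (of 202 members). Cohort 1 alone gave 67 (880 of all) and LBN pups alone 21 (182 of all). Without the replicate block, so without pairing the swabs of a pup, it was 138 (1643 of all). Cohort 1 alone gave 23 calls for LBN at P10 (409 of all) in place of 0. These became 0 when control and LBN pups sharing a number were paired as a block. Cohort 2 alone gave 22 at P2 (479 of all) in place of 0. The numbers shared by control and LBN pups were treated as names, since deviations of such pups correlated at -0.540 to 0.382. Of the 102 cohort calls at P10 (1681 of all), a threshold of 80 left 65 (of 202 members) and controls alone gave 26 (402 of all). The 217 lower means became 137 with a threshold of 80. The 15 DMRs whose change differed between cohorts (82 of all) became 24 in percentage points (118 of all). The causes were not tested, beyond the fewer DMRs or pups of an alternative.

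Leaving out each pup in turn gave 115 to 131 calls by age (1356 to 1575 of all DMRs) and 92 to 117 between cohorts (1537 to 1804 of all). It gave 0 for LBN at P10, at P2 and in change, 196 to 241 lower means, and a median change of -3.72 to -2.04. Kcnk10 alone changed direction by age among the named DMRs, from -0.14 on the log2 odds scale to 0.16 in controls alone and to between -0.45 and 0.0501 when 1 pup was left out, and it was not called. AC096072.1 lost its call by age in percentage points, in cohort 2 or LBN pups alone and without each of 7 pups. The absent read numbers limit all values: a percentage from few reads could not be told from one from many.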
